A study of Mus musculus with 9 samples.

Results

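The genes described here encode transporters that move zinc or nucleotide sugars across the membranes of intracellular organelles and of the cell surface. They were taken by gene symbol, as every protein-coding gene named Slc30a, Slc35a to Slc35g, or Slc39a followed by a number. The rule gave 51 genes, with 10 in the Slc30a family, 27 in Slc35a to Slc35g and 14 in Slc39a, and no measured value entered it. Of these, 50 were among the 21254 protein-coding genes that could be matched to a transcript of the deposited table, and the other one, *Slc35b2*, which encodes a carrier of the sulfate donor PAPS, is not analysed here.

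Zinc is toxic when free and is needed by many enzymes, so cells hold it under close control with 2 opposing families. The SLC30 (ZnT) proteins carry zinc out of the cytosol, either across the plasma membrane or into organelles such as synaptic vesicles and the Golgi apparatus. The SLC39 (ZIP) proteins carry it into the cytosol, from outside the cell or from organelles. Many of the SLC35 proteins sit in the membranes of the Golgi and the endoplasmic reticulum (ER). Several of them exchange nucleotide sugars made in the cytosol or nucleus for nucleoside monophosphates, and so feed the enzymes that build glycans in the lumen, whereas other members of the family have no settled substrate. Glycans such as polysialic acid on adhesion molecules and gangliosides are abundant on growing neurons.

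RNA was sequenced in 9 libraries from the cytoplasmic fraction of mouse cortex at postnatal day 0. All 9 libraries came from mice heterozygous for a knock-in (KI) allele of *Celf2*, which encodes an RNA-binding protein and here carries p.R493H, so that no wild-type library entered any comparison. In RNA immunoprecipitation (RIP), an antibody pulls a protein out of a lysate together with the RNA bound to it. Cytoplasmic lysate was incubated for 3 h with 10 µg of rabbit antibody against CELF2 (CELF2 RIP) or with normal rabbit IgG (IgG RIP), and an aliquot set aside before the incubation was the input. Each condition had 3 libraries, described as biological replicates. The antibody was raised against CELF2 and is not described as specific for the mutant protein, and the cortex held neurons, radial glia, astrocytes, oligodendrocyte precursors, microglia and endothelial cells together, so that fewer cells of a type and less RNA per cell cannot be told apart.

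The libraries held 15919600 to 20052716 estimated counts in CELF2 RIP, 17365561 to 28773130 with IgG and 69125700 to 105116427 in input. Protein-coding genes took 84 to 85.3% of these counts in CELF2 RIP and 74.7 to 80.2% in input. The share in IgG RIP was 52%, 53.8% and 74.2% in replicates 1, 2 and 3, so that the third IgG library stood apart from the other two. Levels are given as CPM, the counts of a gene scaled to a common library size, with sizes adjusted by TMM, a scaling that assumes that most genes do not differ. CPM carries no correction for transcript length and was compared between libraries, not between genes. A gene was called higher or lower where edgeR's quasi-likelihood test gave a false discovery rate (FDR) under 0.01 over all 15267 genes tested and the estimated change was at least 2-fold. CELF2 RIP was compared with IgG RIP, which holds RNA that sticks to antibody and beads, and with input, which gives the level before the pull-down. Both comparisons use the same CELF2 RIP libraries, so their values are set side by side and are not independent of each other.

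Of the 50 genes with transcripts in the table, 47 reached 0.5 CPM in at least 3 libraries and were tested, 9 of them in Slc30a, 25 in Slc35a to Slc35g and 13 in Slc39a. The 3 genes left untested were near absence in every library. *Slc30a8*, the zinc carrier of insulin granules, had 0 to 5 counts per library, *Slc35g3* had 0 to 5 counts in the RIP libraries and 25 to 46 in input, and *Slc39a4*, the intestinal zinc importer, had 0 to 5 in the RIP libraries and 22 to 34 in input.

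Across the 3 families, CELF2 RIP held more of most transporter mRNAs than IgG RIP did. The edgeR test called 28 of the 47 genes (59.6%) higher in CELF2 RIP than in IgG RIP, against 13.4% of all genes tested. It called 0 of the 47 lower, against 13.6% of all genes, and 6 of them had an unadjusted p under 0.05 in that direction. Against input, 11 genes (23.4%) were called higher, where the share of all genes was 14.6%, and 4 (8.51%) were called lower, where it was 15.5%. Higher than both controls were 10 genes (21.3%), against 7.58% of all genes. Lower than both were 0 genes, against 9.54% of all genes, with 4 genes at an unadjusted p under 0.05 in both comparisons. In 31 genes (66%) all 3 CELF2 RIP libraries lay above all 6 control libraries, against 25.2% of all genes, and in 3 (6.38%) they lay below all 6, against 19.9% of all genes. For the 47 genes the log2 fold changes had medians of 1.14 (IgG RIP) and 0.74 (input), beside medians of -0.06 and 0.19 over all genes tested.

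The families differed in their counts. In Slc30a, 7 of 9 genes were called higher than IgG RIP and 4 higher than both controls. In Slc35a to Slc35g these numbers were 16 and 4 of 25, and in Slc39a they were 5 and 2 of 13. The median log2 fold change over IgG RIP was 1.29 in Slc30a, 1.26 in Slc35a to Slc35g and 0.36 in Slc39a, and over input it was 1.0, 0.83 and 0.35 in the same order. The middle of the Slc39a family was also the least settled value, since its median gene over IgG RIP was *Slc39a3*, with a log2 fold change of 0.36 and a standard error (SE) of 1.06. Without the first CELF2 RIP library the Slc39a median was -0.09, and without the third IgG library it was 0.79. The spread within Slc39a was wide, with quartiles at -0.76 and 1.33, whereas those of Slc30a were 1.04 and 1.51 and those of Slc35a to Slc35g were 0.43 and 1.41. The differences between families were not tested.

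The same order of families was seen in the summed levels. The Slc30a genes added up to 636 to 791 CPM in the CELF2 RIP libraries, 261 to 310 CPM with IgG and 309 to 359 CPM in input. The sums of Slc35a to Slc35g were 1627 to 2009, 743 to 798 and 1017 to 1072 CPM, and those of Slc39a were 1030 to 1192, 503 to 577 and 709 to 796 CPM. In each family the lowest CELF2 RIP sum lay above the highest control sum.

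Carriers of other families were set beside them. Of 41 tested Slc25a genes, which encode mitochondrial carriers, 8 (19.5%) were called higher and 7.32% lower than IgG RIP, and 4 (9.76%) were called higher and 7.32% lower than both controls, with a median log2 fold change over IgG RIP of 0.27. Of 218 tested genes in the remaining Slc families, 58 (26.6%) were called higher and 3.67% lower than IgG RIP, and 34 (15.6%) were called higher and 1.83% lower than both controls, with a median of 0.44. The difference between these families and the zinc and nucleotide-sugar transporters was not tested. The counts were also read by level. Of the 38 transporter genes with a mean of at least 10 CPM over the libraries, 25 (65.8%) were called higher than IgG RIP, beside 19% of all 9723 genes at that level, and 9 (23.7%) were called higher than both controls, beside 11.2%. Of the 9 genes below 10 CPM, 3 (33.3%) were called higher than IgG RIP, beside 13.4% of all genes tested at any level. That share does not match the level of these 9 genes. Of the 2050 genes called higher than IgG RIP among all 15267 tested, 1852 were among the 9723 at 10 CPM or more. The share of all genes below 10 CPM was thus under 13.4%, and its value was not computed.

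Among the zinc exporters, the gene with the largest fold was *Slc30a3*, which encodes ZnT3, the carrier that loads zinc into the synaptic vesicles of glutamatergic neurons. Its levels were 14.5, 27.2 and 12.1 CPM in CELF2 RIP, 3.07, 2.08 and 4.44 CPM with IgG and 5.59, 5.11 and 4.45 CPM in input. The CELF2 RIP libraries did not overlap the controls, and the second of them was the highest by far. The log2 fold change was 2.47 ± 0.35 (SE, edgeR FDR 0.000218) over IgG RIP and 1.83 ± 0.33 (FDR 0.000839) over input. It was the lowest of the 10 called genes in reads, with 21 to 62 counts per IgG library.

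*Slc30a7* encodes ZnT7, which brings zinc into the early secretory pathway, where zinc-dependent enzymes such as alkaline phosphatases mature. It stood at 116, 178 and 118 CPM in CELF2 RIP, 49.1, 42.5 and 41.1 CPM with IgG and 48.1, 50.7 and 43.0 CPM in input. Both controls were thus alike, and CELF2 RIP was higher by 1.64 ± 0.18 over IgG RIP (log2, SE, edgeR FDR 3.77e-05) and 1.54 ± 0.17 over input (FDR 4.31e-05). *Slc30a1*, the plasma membrane zinc exporter, had 112, 163 and 134 CPM in CELF2 RIP, 45.6, 49.7 and 64.4 CPM with IgG and 56.7, 63.8 and 51.5 CPM in input. It rose by 1.36 ± 0.18 over IgG RIP (FDR 0.000119) and 1.25 ± 0.17 over input (FDR 0.00016). *Slc30a10*, a family member known as an exporter of manganese, had 64.8, 86.6 and 70.5 CPM in CELF2 RIP against 31.5, 28.2 and 36.8 CPM with IgG and 34.5, 32.2 and 30.1 CPM in input. It rose by 1.20 ± 0.15 over each control (FDR 9.79e-05 and 7.79e-05). In all 4 of these exporters the second CELF2 RIP library was the highest, and none of the 4 lost its call over both controls when any single library was left out.

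The other exporters were above IgG RIP by less, or above input by less. *Slc30a4*, which carries zinc into endosomes and lysosomes, lay at 124, 134 and 111 CPM in CELF2 RIP, 39.8, 39.9 and 49.9 CPM with IgG and 66.9, 63.1 and 55.1 CPM in input. On the log2 scale it stood 1.51 ± 0.14 over IgG RIP (FDR 1.63e-05) and 1.0 ± 0.13 over input (FDR 0.000126), just short of 2-fold before rounding, so it passed the FDR and missed the fold threshold over input. *Slc30a9*, linked to zinc in mitochondria, was called over IgG RIP at 1.29 ± 0.13 and stood 0.65 ± 0.13 over input. *Slc30a6* and *Slc30a5* encode the partners of a zinc carrier of the early secretory pathway. *Slc30a6* was called over IgG RIP at 1.04 ± 0.23 (FDR 0.00325), a call that 4 of the 9 omissions of a single library kept, and *Slc30a5* had a significant change over IgG RIP that was under 2-fold (0.89 ± 0.16, FDR 0.00111). *Slc30a2*, which loads zinc into vesicles and lysosomes, was the lowest of the family over IgG RIP, with 1.04, 0.308 and 0.268 CPM in CELF2 RIP, 0.813, 0.396 and 1.94 CPM with IgG and 0.683, 0.661 and 0.841 CPM in input. These values overlapped, and its log2 fold change of -0.97 ± 0.69 did not pass the test (FDR 0.258).

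**Figure D1:**
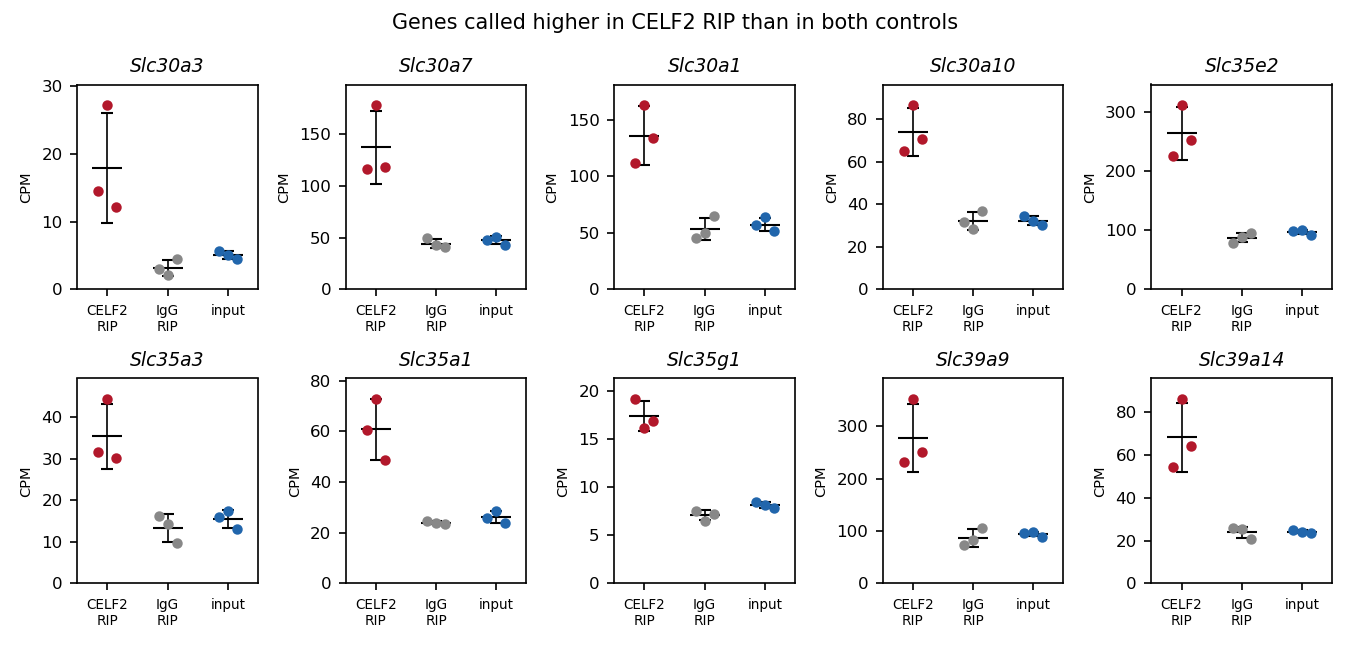
Level in CPM (vertical axes, each from 0) of the 10 genes called higher in CELF2 RIP than in both controls, with 1 point per library and the mean ± SD of 3 libraries as bars. In each of the 10 genes the 3 CELF2 RIP points lie above the 6 control points, and in 9 of them the second CELF2 RIP library is the highest.

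Among the SLC35 proteins, those with a known nucleotide sugar were described first. *Slc35a1* encodes the carrier that brings CMP-sialic acid into the Golgi, where sialyltransferases use it. It had 60.7, 72.8 and 48.8 CPM in CELF2 RIP, 24.5, 23.9 and 23.3 CPM with IgG and 25.7, 28.6 and 23.9 CPM in input. The CELF2 RIP libraries did not overlap the controls, and the rise was 1.35 ± 0.16 over IgG RIP (log2, SE, edgeR FDR 6.44e-05) and 1.22 ± 0.16 over input (FDR 8.96e-05). *Slc35a3*, a carrier linked to UDP-N-acetylglucosamine, had 31.6, 44.4 and 30.3 CPM in CELF2 RIP, 16.2, 14.3 and 9.6 CPM with IgG and 15.9, 17.5 and 13.0 CPM in input, and rose by 1.41 ± 0.23 (FDR 0.000499) and 1.20 ± 0.22 (FDR 0.00103). *Slc35a2*, the carrier of UDP-galactose and a gene of congenital disorders of glycosylation with epilepsy, had 52.3, 69.4 and 44.4 CPM in CELF2 RIP, 21.1, 27.7 and 20.9 CPM with IgG and 29.4, 32.0 and 27.1 CPM in input. Here, too, every CELF2 RIP library was above every control, but the change over input was under 2-fold, with 1.26 ± 0.19 over IgG RIP (FDR 0.000284) and 0.91 ± 0.18 over input (FDR 0.00166).

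*Slc35c1*, the GDP-fucose carrier, showed a different pattern. It had 44.2, 39.1 and 37.9 CPM in CELF2 RIP, 14.3, 17.0 and 12.8 CPM with IgG and 30.1, 30.1 and 34.5 CPM in input. The rise over IgG RIP was 1.46 ± 0.15 (FDR 2.81e-05) and that over input 0.36 ± 0.14 (FDR 0.0507), and IgG RIP itself differed from input by a log2 fold change of -1.10 ± 0.15 (FDR 0.000479). *Slc35b4*, a carrier of UDP-xylose and UDP-N-acetylglucosamine, was called over IgG RIP at 1.49 ± 0.15 and stood 0.97 ± 0.15 over input. *Slc35b1*, which brings ATP into the ER, was called over IgG RIP at 1.09 ± 0.26, a call that 5 of the 9 omissions of a library kept, and *Slc35b3*, the PAPS carrier that was measured, did not pass the test over IgG RIP (0.43 ± 0.19, FDR 0.0805).

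*Slc35d1* carries UDP-glucuronic acid and UDP-N-acetylgalactosamine into the ER. Its levels were 30.8, 38.5 and 31.8 CPM in CELF2 RIP, 35.7, 37.6 and 18.5 CPM with IgG and 13.7, 16.1 and 14.9 CPM in input. Both RIP conditions were above input, by 1.18 ± 0.24 for CELF2 RIP (FDR 0.00177) and 1.04 ± 0.24 for IgG RIP (FDR 0.00732), and they overlapped each other, with a log2 fold change of 0.14 ± 0.24 (FDR 0.642). It was the 1 gene called higher than input and not higher than IgG RIP. Its close relative *Slc35d2*, at 1.84 to 2.31 CPM in CELF2 RIP and 2.37 to 3 CPM in IgG RIP, did not pass the test over IgG RIP (-0.36 ± 0.29, FDR 0.322).

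Of the SLC35 members without a settled substrate, *Slc35e2* gave the firmest call with TMM scaling. With total counts in place of TMM, it lost its calls over input and over both controls and kept that over IgG RIP. It had 225, 311 and 252 CPM in CELF2 RIP, 78.7, 87.6 and 94.9 CPM with IgG and 98.1, 99.8 and 92.4 CPM in input. The log2 fold change was 1.59 ± 0.14 over IgG RIP (FDR 1.27e-05) and 1.44 ± 0.13 over input (FDR 1.56e-05), and it was the 1 gene of the 10 whose change was significantly larger than 2-fold over both controls in edgeR's test against that threshold. *Slc35g1* was lower and even within groups, with 19.2, 16.2 and 16.9 CPM in CELF2 RIP, 7.57, 6.54 and 7.24 CPM with IgG and 8.44, 8.16 and 7.89 CPM in input. It rose by 1.29 ± 0.15 (FDR 6.23e-05) and 1.09 ± 0.15 (FDR 0.000117), close to the fold threshold over input, and it lost that call without the second input library. 

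*Slc35a5* had the largest fold over IgG RIP in this family, with 84.5, 97.6 and 55.2 CPM in CELF2 RIP, 19.3, 20.6 and 7.74 CPM with IgG and 43.2, 42.2 and 36.8 CPM in input. On the log2 scale CELF2 RIP stood 2.32 ± 0.33 over IgG RIP (FDR 0.000226) and 0.96 ± 0.31 over input (FDR 0.0227), and IgG RIP stood at -1.36 ± 0.33 against input (FDR 0.00839). *Slc35g2*, at 5.18 to 7.52 CPM in CELF2 RIP and 0.793 to 2 CPM in IgG RIP, and *Slc35f5*, with IgG libraries at 7.51, 25.4 and 23.9 CPM, were also called over IgG RIP (2.21 ± 0.33 and 1.84 ± 0.36) and missed the FDR over input (1.02 and 1.15, FDR 0.0142 and 0.0148). *Slc35f1* and *Slc35e1*, with 395 to 494 and 183 to 214 CPM in CELF2 RIP, were called over IgG RIP at 1.39 ± 0.12 and 1.34 ± 0.10, with 0.74 and 0.83 over input. The remaining calls over IgG RIP were those of *Slc35f2* (1.27), *Slc35d3* (1.08) and *Slc35e3* (1.06), of which *Slc35d3* kept its call in 5 and *Slc35e3* in 6 of the 9 omissions of a library. *Slc35a4* and *Slc35f6* were 0.93 and 0.86 over IgG RIP without a call, and *Slc35f3* and *Slc35f4*, at 0.09 and -0.01, did not pass the test.

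A pair of SLC35 genes went the other way. *Slc35c2*, a family member linked to GDP-fucose, had 21.8, 9.78 and 14.5 CPM in CELF2 RIP, 24.2, 20.4 and 38.2 CPM with IgG and 48.9, 47.8 and 49.4 CPM in input. CELF2 RIP and IgG RIP overlapped (-0.85 ± 0.29, FDR 0.0307), and CELF2 RIP lay below input (-1.67 ± 0.29, FDR 0.000706). *Slc35e4* had 23.2, 18.5 and 18.2 CPM in CELF2 RIP, 36, 33.4 and 27.9 CPM with IgG and 49.3, 48.1 and 45.2 CPM in input. Its groups did not overlap, with -0.70 ± 0.15 over IgG RIP (FDR 0.00252) and -1.25 ± 0.15 over input (FDR 5.7e-05), so it passed the FDR in both comparisons and the fold threshold over input.

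Among the zinc importers some genes rose and others fell. *Slc39a9* encodes ZIP9, a zinc carrier of the trans-Golgi network. It had 232, 352 and 251 CPM in CELF2 RIP, 73.1, 82.0 and 105 CPM with IgG and 96.1, 97.1 and 88.9 CPM in input. It rose by 1.68 ± 0.18 over IgG RIP (log2, SE, edgeR FDR 3.95e-05) and 1.57 ± 0.18 over input (FDR 4.86e-05). *Slc39a14* encodes ZIP14, which takes up zinc, manganese and iron, and had 54.4, 86.2 and 64.4 CPM in CELF2 RIP, 25.7, 25.2 and 20.7 CPM with IgG and 24.7, 24.1 and 23.4 CPM in input. It rose by 1.52 ± 0.18 over IgG RIP (FDR 5.98e-05) and 1.51 ± 0.17 over input (FDR 4.89e-05). Both genes kept these calls when any single library was left out. *Slc39a14* and *Slc30a10* are the members best known for moving manganese, and both were called higher than both controls, whereas *Slc39a8*, the third member known for it, was lower than input.

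Another 3 importers were called over IgG RIP alone. *Slc39a1*, a zinc importer of the plasma membrane, had 152, 91.8 and 111 CPM in CELF2 RIP, 40, 51.8 and 49.7 CPM with IgG and 95.6, 99.1 and 95.0 CPM in input. It was above IgG RIP by 1.33 ± 0.18 (FDR 0.000159) and overlapped input (0.29 ± 0.18, FDR 0.178), and IgG RIP against input was at -1.04 ± 0.18 (FDR 0.00172). *Slc39a6* was called over IgG RIP at 1.14 ± 0.17, a call lost without the first IgG library, and stood 0.58 ± 0.17 over input. *Slc39a10*, which with *Slc39a6* encodes a pair of closely related importers, had the largest fold and one of the largest errors, with 149, 171 and 166 CPM in CELF2 RIP, 49.2, 11.5 and 3.58 CPM with IgG and 108, 84.3 and 32.3 CPM in input. CELF2 RIP was even and the controls were not, and the value over IgG RIP, 2.90 ± 0.75 on the log2 scale (FDR 0.00773), kept its call in 4 of the 9 omissions of a library. Over input it did not pass the test (1.12 ± 0.69, FDR 0.189).

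*Slc39a7* and *Slc39a8* were below input. *Slc39a7* encodes ZIP7, which releases zinc from the ER, and had 98.9, 55.5 and 70.4 CPM in CELF2 RIP, 134, 139 and 133 CPM with IgG and 165, 176 and 172 CPM in input. No CELF2 RIP library reached a control, and the log2 fold change was -0.85 ± 0.18 over IgG RIP (FDR 0.00227) and -1.19 ± 0.18 over input (FDR 0.000243). It thus lay on the opposite side of its controls from *Slc30a7* and *Slc39a9*, whose products also act on zinc in secretory compartments. *Slc39a8*, encoding a zinc and manganese importer, had 8.8, 6.78 and 6.51 CPM in CELF2 RIP, 6.95, 15.7 and 15.1 CPM with IgG and 19.8, 27.1 and 22.5 CPM in input. It overlapped IgG RIP (-0.76 ± 0.29, FDR 0.0485) and lay below input (-1.65 ± 0.29, FDR 0.00069). The 4 genes called lower than input, *Slc39a7*, *Slc39a8*, *Slc35c2* and *Slc35e4*, kept that call in each of the 9 omissions of a library.

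The other importers did not pass both thresholds over IgG RIP. *Slc39a11* was above IgG RIP by under 2-fold (0.92 ± 0.18, FDR 0.00144). *Slc39a12*, *Slc39a13* and *Slc39a2* stood at 0.21, -0.49 and -0.78 (log2) over IgG RIP with FDR values of 0.565, 0.0489 and 0.237. *Slc39a5* was the lowest of the family over IgG RIP, with 0.4, 0.385 and 0.268 CPM in CELF2 RIP, 1.44, 0.694 and 0.573 CPM with IgG and 0.477, 0.507 and 0.485 CPM in input. These were 3 to 23 counts per RIP library, and the change of -1.37 ± 0.53 did not pass the test (FDR 0.0512), although no CELF2 RIP library reached a control.

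**Figure D2:**
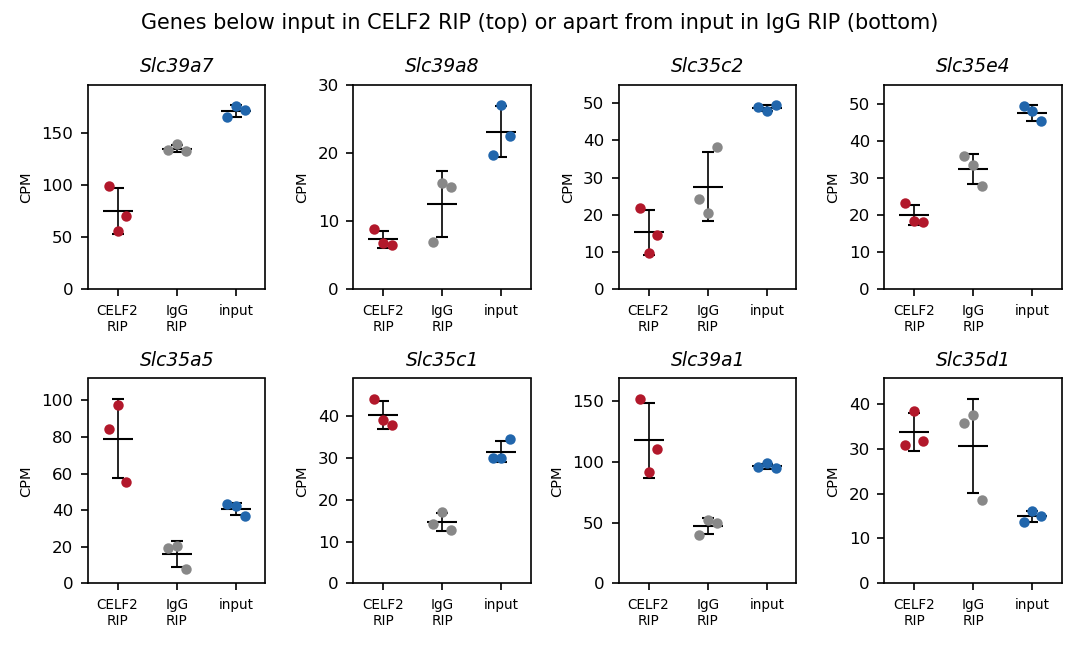
Level in CPM (vertical axes, each from 0) of the 4 genes called lower in CELF2 RIP than in input (top) and of 4 genes called between IgG RIP and input (bottom), with 1 point per library and the mean ± SD of 3 libraries as bars. In the top panels the CELF2 RIP points lie under the input points, and in the last panel (*Slc35d1*) the CELF2 RIP and IgG RIP points lie above input, with the third IgG library at 18.5 CPM.

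The comparison of the controls with each other gives the background of the pull-down. Of the 47 genes, 1 was called higher in IgG RIP than in input (*Slc35d1*), against 6.79% of all genes tested, and 4 were called lower (*Slc35a5*, *Slc35c1*, *Slc39a1* and *Slc39a12*), against 5% of all genes. The median log2 fold change of IgG RIP over input was -0.35 over the 47 genes, with 8 of them above 0. By family it was -0.19 in Slc30a, -0.44 in Slc35a to Slc35g and -0.34 in Slc39a, and over all genes it was near 0. In *Slc35a5*, *Slc35c1* and *Slc39a1* the value over IgG RIP thus exceeded that over input by the amount that IgG RIP lay below input. The call of *Slc35d1* over input in IgG RIP was lost in every omission of a library other than those of the third IgG and second CELF2 RIP libraries.

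The counts were estimated per transcript, and a gene's reads can move between its transcripts. The tested genes with a single transcript in the table numbered 8, and of the 39 with more, 19 had the same leading transcript in all 9 libraries and 20 did not. In *Slc30a7* the curated transcript held 73.4, 70.3 and 62.9% of the gene's counts in CELF2 RIP, 39.2, 19.2 and 54.4% with IgG and 55.5, 49.1 and 60.4% in input, so that the 3 CELF2 RIP shares were above the 6 control shares. In *Slc39a9* the curated share was 76.3, 74.2 and 56.6% in CELF2 RIP, 26.4, 33.1 and 60.2% with IgG and 81.6, 67.8 and 66.3% in input, and the groups overlapped. These shares were not tested.

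In *Slc39a10* a single predicted transcript held 94.8 to 96.5% of the counts in CELF2 RIP and 95.1 to 97.9% in input, but 95, 42 and 0.19% in the IgG libraries, while the curated transcript held almost none. *Slc39a3* moved between 2 predicted transcripts, one leading in the first CELF2 RIP library and the other in the third IgG library, and its second IgG library had 1 count in all. Its levels were 39.6, 21.1 and 13.6 CPM in CELF2 RIP, 26.7, 0.0991 and 30.5 CPM with IgG and 30.6, 3.56 and 6.24 CPM in input. Transcripts that could not be matched to a gene were left out of all sums, so the sums of these genes may miss transcripts that took reads in some libraries. By annotated span, *Slc39a9* overlaps *Erh*, *Slc35a4* overlaps *Apbb3*, *Slc39a11* overlaps *Sstr2* and *Cog1*, and *Slc35g2* overlaps *Gm46139*, and the values of these genes are uncertain to the extent that reads were shared, since the libraries were directional but the use of strand in counting is not given in the sources used here. With curated transcripts alone, 7 of the 10 calls over both controls remained, and those of *Slc30a3*, *Slc39a9* and *Slc39a14* were lost.

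**Figure D3:**
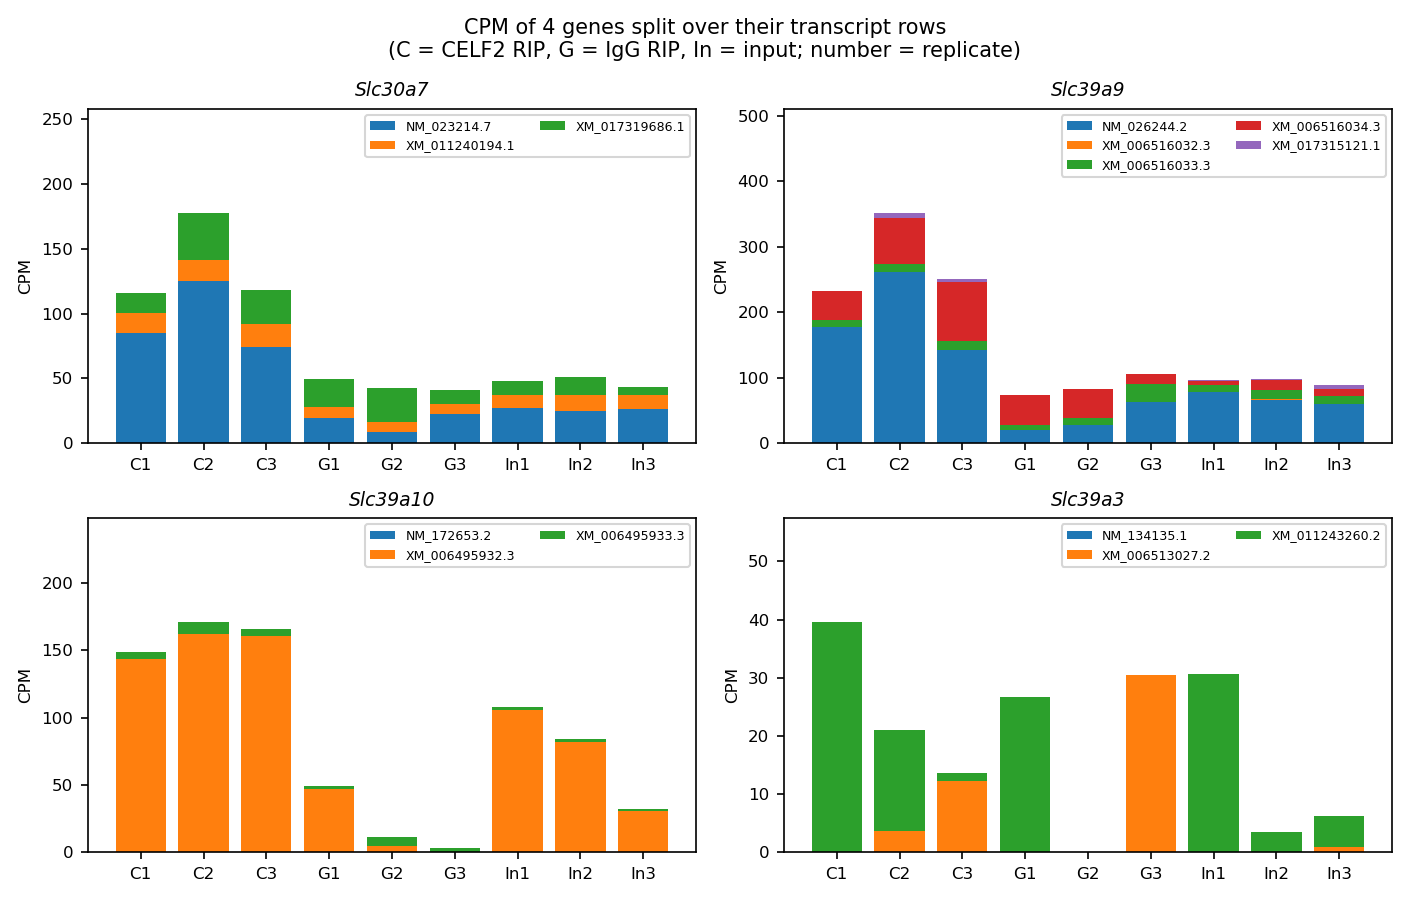
Level in CPM (vertical axes, each from 0) of *Slc30a7*, *Slc39a9*, *Slc39a10* and *Slc39a3* in each of the 9 libraries, stacked by transcript (NM for curated and XM for predicted RefSeq transcripts). The stacks of *Slc30a7* and *Slc39a9* are highest in the 3 CELF2 RIP libraries. Those of *Slc39a10* are even in CELF2 RIP and differ widely between replicates of each control. Those of *Slc39a3* differ widely between replicates of every condition, with 1 count in the second IgG library.

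Genes that act beside these transporters were set next to them. Of the enzymes that make nucleotide sugars, 21 were tested, and 1 (4.76%) was called higher than IgG RIP and 3 (14.3%) lower, beside 13.4% and 13.6% of all genes, with median log2 fold changes of -0.11 over IgG RIP and 0.03 over input. The enzyme called higher was *Gfpt1*, the entry enzyme of the hexosamine pathway (1.19 over IgG RIP and 1.52 over input), and those called lower were *Ugp2*, *Gmds* and *Gfus*, of which the last 2 make GDP-fucose. Each of these 4 was called in the same direction against input. Golgi and ER nucleoside diphosphatases split the nucleotide released by glycosylation and so supply the exchange substrate of the carriers. Of 4 tested, 3 (75%) were called higher than IgG RIP, beside 13.4% of all genes (*Entpd5* at 1.52, *Cant1* at 1.20 and *Entpd6* at 1.06). Against input 0 were called higher, beside 14.6% of all genes, and their median was 0.68. A list of 4 genes is too short to tell 0 from that share. Of 19 sialyltransferases, which use the donor brought in by the *Slc35a1* product, 7 (36.8%) were called higher than IgG RIP and 0 lower, and 2 (10.5%, beside 7.58% of all genes) were called higher than both controls, *St6gal2* (1.94 and 1.42) and *St8sia1* (1.69 and 1.63).

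The genes of zinc buffering gave a mixed reading. *Mt3*, the metallothionein of neurons and astrocytes, stood at 3.63 ± 0.0306 CPM in CELF2 RIP, 15.9 ± 1.17 CPM with IgG and 44.3 ± 3.54 CPM in input (SD, n = 3), and was called lower than both (log2 -2.14 and -3.61, edgeR FDR 6.64e-06 and 1.3e-07). *Mt1* and *Mt2* were lower than input (-2.06 and -1.63) and were not called against IgG RIP (-0.60 and -0.09). IgG RIP itself was called lower than input for *Mt1*, *Mt2* and *Mt3* (-1.46, -1.54 and -1.48). *Tmem163*, a zinc transporter of synaptic vesicles outside the SLC families, was called over IgG RIP (1.37) with 0.66 over input, and *Mtf1*, the zinc-sensing transcription factor, was not called (0.44 and 0.84). Of 7 subunits of AP-3, the adaptor that sorts ZnT3 to synaptic vesicles, *Ap3s1* (1.05) and *Ap3s2* (1.86) were called higher than IgG RIP and *Ap3b1* (-1.03) and *Ap3b2* (-1.45) lower, and *Ap3s2* and *Ap3b2* kept their direction and call against input. The calls over IgG RIP were 28.6% of the 7 in each direction, beside 13.4% of all genes called higher and 13.6% called lower.

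Markers of cell types also moved between the conditions. The summed level of 6 excitatory neuron markers was 1584 to 2176 CPM in CELF2 RIP, 840 to 965 CPM with IgG and 886 to 1029 CPM in input, with 4 of the 6 called higher than IgG RIP and 3 higher than input. Of 6 inhibitory neuron markers 1 was called higher than IgG RIP and 1 lower than input (533 to 607, 333 to 380 and 443 to 461 CPM). Of 6 radial glia and astrocyte markers, 2 were called lower than IgG RIP and 3 lower than input (460 to 924, 580 to 688 and 998 to 1232 CPM). Of 4 erythroid markers, 4 were called lower than IgG RIP and 3 lower than input (73.7 to 77.1, 282 to 451 and 709 to 916 CPM). The excitatory and inhibitory neuron sums in CELF2 RIP were thus above both controls in every library, and the erythroid sums below them. Oligodendrocyte precursor markers had 0 of 5 called against IgG RIP and 2 lower than input (547 to 655, 546 to 573 and 489 to 557 CPM). Of 5 tested microglia markers, 1 was called higher and 1 lower than IgG RIP, and 1 higher and 3 lower than input. The one higher than input was *Csf1r*, near the floor at 2.11 ± 1.84 CPM in CELF2 RIP (SD, n = 3) and 0 in input. The microglia sums, which also hold the untested *P2ry12*, were 91.2 to 125, 50.2 to 67.6 and 93.7 to 119 CPM. Of 5 endothelial markers, 1 was called lower than IgG RIP and 2 lower than input (109 to 150, 107 to 240 and 164 to 253 CPM). Over all genes tested, 13.4% were called higher and 13.6% lower than IgG RIP, and 14.6% higher and 15.5% lower than input. The part of these cell types in the values of the transporter genes was not tested.

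The scale of all genes also bears on the calls. With total counts in place of TMM, the median of all genes over IgG RIP moved by -0.37 and that over input by -0.46, 13 transporter genes were called higher than IgG RIP and 4 lower, and 4 were called higher than both controls (*Slc30a3*, *Slc30a7*, *Slc39a9* and *Slc39a14*) and 4 lower than both (*Slc35c2*, *Slc35e4*, *Slc39a7* and *Slc39a8*).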

How the data were processed

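RNA was measured in 9 libraries, 3 each of CELF2 RIP, IgG RIP and input, grouped by the labels. Per the study's methods, rRNA-depleted, directional libraries were checked with FastQC 0.11.9, trimmed with fastp 0.23.4, cleared of rRNA reads with Ribodetector 0.3.1 and pseudoaligned with kallisto 0.51.1. The authors deposited estimated counts per transcript, not normalized for depth or length. The methods name Ensembl, whereas the transcripts carry RefSeq accessions. Because kallisto divides reads among similar transcripts by estimation, values of single transcripts are less certain than their sum.

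Of 107384 transcripts, 86722 were matched to genes by accession (RefSeq table of GRCm38.p6, used for names and class only) and the others were left out. Counts of each gene were summed and rounded to whole numbers, and 15267 of 18559 protein-coding genes with a count passed 0.5 CPM in at least 3 libraries. One edgeR 4.0.16 quasi-likelihood model (R 4.3.3, limma 3.58.1) with a mean per condition and TMM scaling gave log2 fold changes, SE and Benjamini-Hochberg FDR over all tested genes. The study used edgeR 4.4.0 and DESeq2 1.46.0. The common biological coefficient of variation was 0.221. Replicates of a condition differed beyond counting noise (chi-square of 11.9 to 44.3 per gene over 9 pairs), so each was counted as 1 sample. The scripts were tested on simulated data.

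Alternatives were other scalings (total counts, RLE, upper quartile), no filter, DESeq2 1.42.0, edgeR's test against a 2-fold change, curated transcripts alone, the replicate number as a block and omission of each library. Replicate numbers paired CELF2 RIP with input (correlations of deviations 0.185, 0.122 and 0.213 over 11534 genes) but not CELF2 RIP with IgG RIP (-0.07, 0.038 and -0.011). Values in every library are given for genes called higher or lower than both controls, the largest and smallest fold over IgG RIP in each family, the largest changes between IgG RIP and input and genes with textbook roles, and for others that were chosen after their values were seen. The members and lists were chosen with earlier results of these data known. Libraries described as biological replicates are the only source of the spread behind each p. No sequence is printed. Python 3.11.15, pandas 2.3.3 and matplotlib 3.10.9 were used for tables and plots.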

Additional observations from a re-analysis of the deposited data

How the results depend on the processing

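The 28 calls over IgG RIP, the 11 higher and 4 lower than input and the 10 over both controls were the same genes with the replicate number as a block, where the Slc39a median over IgG RIP was 0.87 (0.36 without the block) and 0 genes were called higher in IgG RIP than in input. That last count was 1 in the main analysis and also 0 with total counts, DESeq2's size factors (RLE), DESeq2, curated transcripts and the test against 2-fold. With total counts, 13 genes were called higher and 4 lower than IgG RIP, 4 higher than input, and 4 higher and 4 lower than both controls, and medians were 0.92, 0.88 and 0.02 over IgG RIP and 0.53, 0.37 and -0.11 over input in Slc30a, Slc35a to Slc35g and Slc39a. With upper-quartile scaling, 2 genes were lower than IgG RIP, 6 higher than input, 6 higher than both and 2 lower than both, with medians of 1.02, 0.99 and 0.10 and of 0.76, 0.60 and 0.11. RLE and DESeq2 each gave a Slc30a median over input of 0.86. Without a filter the medians over IgG RIP were 1.08 in Slc35a to Slc35g and 0.20 in Slc39a. With curated transcripts alone, 2 genes were lower than IgG RIP and than both controls, 1 was lower in IgG RIP than in input, and the Slc39a median was 1.0 over IgG RIP and -0.21 over input. The test against 2-fold called 9 genes higher than IgG RIP, 1 higher and 0 lower than input, 1 higher than both and 0 lower in IgG RIP than in input, because it asks for a change beyond 2-fold. *Slc35d1* over IgG RIP was -0.24 with total counts, -0.12 with upper-quartile scaling and -0.12 to 0.32 over the omissions of single libraries (-0.12 without the third IgG library). Leaving out single libraries gave 23 to 28 genes higher than IgG RIP, 9 to 13 higher than both (13 without the third CELF2 RIP library), 0 to 2 lower than IgG RIP and 0 to 2 lower than both (2, *Slc35c2* and *Slc39a7*, without the first CELF2 RIP library, and 1, *Slc39a8*, without the first IgG library), 0 to 4 higher in IgG RIP than in input (4 without the third IgG library) and 2 to 4 lower. The medians ranged from 1.06 to 1.31 in Slc35a to Slc35g and from -0.09 to 0.79 in Slc39a over IgG RIP. The cause of the changes outside the scalings and the test against 2-fold was not tested. Depth limits the low genes, such as *Slc39a5* with 3 to 23 counts per RIP library.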
